A study of Homo sapiens with 8 samples.

Results

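The TRAIL death pathway was followed in K562 cells, an established human erythroleukaemia-type line derived from chronic myeloid leukaemia, through 9 genes: the ligand TNFSF10 (TRAIL), its 4 membrane receptors TNFRSF10A, TNFRSF10B, TNFRSF10C and TNFRSF10D, the adaptor FADD, the initiator caspases CASP8 and CASP10, and their inhibitor CFLAR. All 9 were measured, among 19775 genes in all. They were covered by 38 probe sets, the array's units of measurement, out of 54675. Every probe set whose annotation lists a member as its only gene symbol was taken. The group was chosen from the values of this same estradiol and vehicle contrast, in which TNFSF10 had the 10th largest rise of all genes. Its differences and calls are therefore given as a description, without p-values, and nothing is supported by them.

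All 8 cultures carried a stable transgene in which p42-C/EBPα, the long form of a myeloid transcription factor, is joined to the oestrogen receptor (ER). The 4 treated cultures, labelled biological replicates 1 to 4, had received 1 µM beta-estradiol, which brings such a fusion into the nucleus, and the other 4 the ethanol vehicle, each for 6 h. The labels name no cells without the fusion, so effects of estradiol in its absence were not measured, and they do not say whether the line is a single clone or how the cultures were separated. P-values for other genes therefore measure the spread between these samples, which may be technical.

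TRAIL is a trimeric death ligand of the tumour necrosis factor family. Its death receptors, TNFRSF10A (DR4) and TNFRSF10B (DR5), carry a cytoplasmic death domain that recruits FADD, which in turn gathers CASP8 and CASP10 into an activating complex. TNFRSF10C is a lipid-anchored decoy without a death domain and TNFRSF10D a decoy with a truncated one, while CFLAR (c-FLIP) resembles a caspase, lacks its activity and competes for the complex. In blood cells TRAIL is best known as an effector of natural killer cells, T cells and monocytes and as a gene induced by interferon.

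The promoter windows of 3 members are shown: those of the ligand, with the largest rise, CASP8, also called higher, and FADD, not called. They share some elements, named below, and whether these bear on the responses was not tested. RefSeq windows (GRCh38.p14), running from 250 bases before the start site to 50 bases from it onward, were found for 4 of the 9 members. Capitals mark matches on either strand to any of 6 motifs: the C/EBP motif TTGCNNAA, the FOXO motif GTAAACA, the interferon-stimulated response element (ISRE, GAAA repeated after any pair of bases), the GAS element TTCNNNGAA, the GC box GGGCGG and the full oestrogen response element. The TNFSF10 window lies at chr3:172523381-172523680 on the minus strand, that of CASP8, the first of its 3, at chr2:201233213-201233512 on the plus strand and that of FADD at chr11:70203046-70203345 on the plus strand.
TNFSF10: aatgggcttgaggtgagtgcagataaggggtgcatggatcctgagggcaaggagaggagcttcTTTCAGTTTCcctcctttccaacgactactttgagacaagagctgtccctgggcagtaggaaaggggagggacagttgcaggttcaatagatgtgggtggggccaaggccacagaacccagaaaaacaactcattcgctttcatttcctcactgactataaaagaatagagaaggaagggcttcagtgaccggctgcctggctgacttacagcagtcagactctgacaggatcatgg
CASP8: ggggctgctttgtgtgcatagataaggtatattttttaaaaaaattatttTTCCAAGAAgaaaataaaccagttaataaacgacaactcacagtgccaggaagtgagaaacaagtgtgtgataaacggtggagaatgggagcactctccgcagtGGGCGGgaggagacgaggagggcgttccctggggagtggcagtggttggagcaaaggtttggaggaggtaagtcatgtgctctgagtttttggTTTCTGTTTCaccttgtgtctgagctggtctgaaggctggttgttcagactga
FADD: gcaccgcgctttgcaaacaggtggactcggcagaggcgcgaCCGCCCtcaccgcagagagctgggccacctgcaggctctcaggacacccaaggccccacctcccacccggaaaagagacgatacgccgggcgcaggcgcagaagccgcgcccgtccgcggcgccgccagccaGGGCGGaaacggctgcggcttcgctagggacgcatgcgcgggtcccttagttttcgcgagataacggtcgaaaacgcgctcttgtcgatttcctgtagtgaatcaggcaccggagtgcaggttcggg

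In the TNFSF10 window the sole match was an ISRE, TTTCAGTTTC on the printed strand, starting at position -187 counted from the start site. The first CASP8 window held an ISRE starting at -3 (TTTCTGTTTC), a GAS element starting at -200 (TTCCAAGAA) and a GC box at -96. FADD held 2 GC boxes, at -209 and -77, and CFLAR 1 in the first and 2 in the fourth of its 4 windows. Of 35116 promoter windows of this length, 3.57% held the ISRE, 7.66% the GAS element, 45% the GC box, 10.5% the C/EBP motif, 3.42% the FOXO motif and 0.057% the oestrogen response element. None of the windows of the 4 genes held the letters searched for C/EBP, FOXO or the oestrogen response element. The matches describe these letters alone, and binding was not measured.

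With estradiol the ligand signal was several-fold higher, the death receptors moved in opposite directions, and the initiator caspases were modestly higher, while the adaptor and the decoy receptors were not called. With each gene read from its brightest probe set (by its 8-array mean), 5 of the 9 members were called in a limma fit over all genes (Benjamini-Hochberg adjusted p below 0.05): TNFSF10, TNFRSF10B, CASP8 and CASP10 higher and TNFRSF10A lower. Among all genes 17.9% were called, 8.29% higher and 9.6% lower. In the fit over all probe sets, which gives the errors quoted below for members, 10 of the 38 were called higher and 2 lower, where 10.4% of all probe sets were called, 5.32% higher and 5.05% lower. In 16 of the 38 the groups did not overlap, against 17.5% of all probe sets. The median difference was 0.10 on the log2 scale over the 38 probe sets and -0.02 over all. Since members were chosen on this contrast, these shares are not evidence about the pathway.

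**Figure D1:**
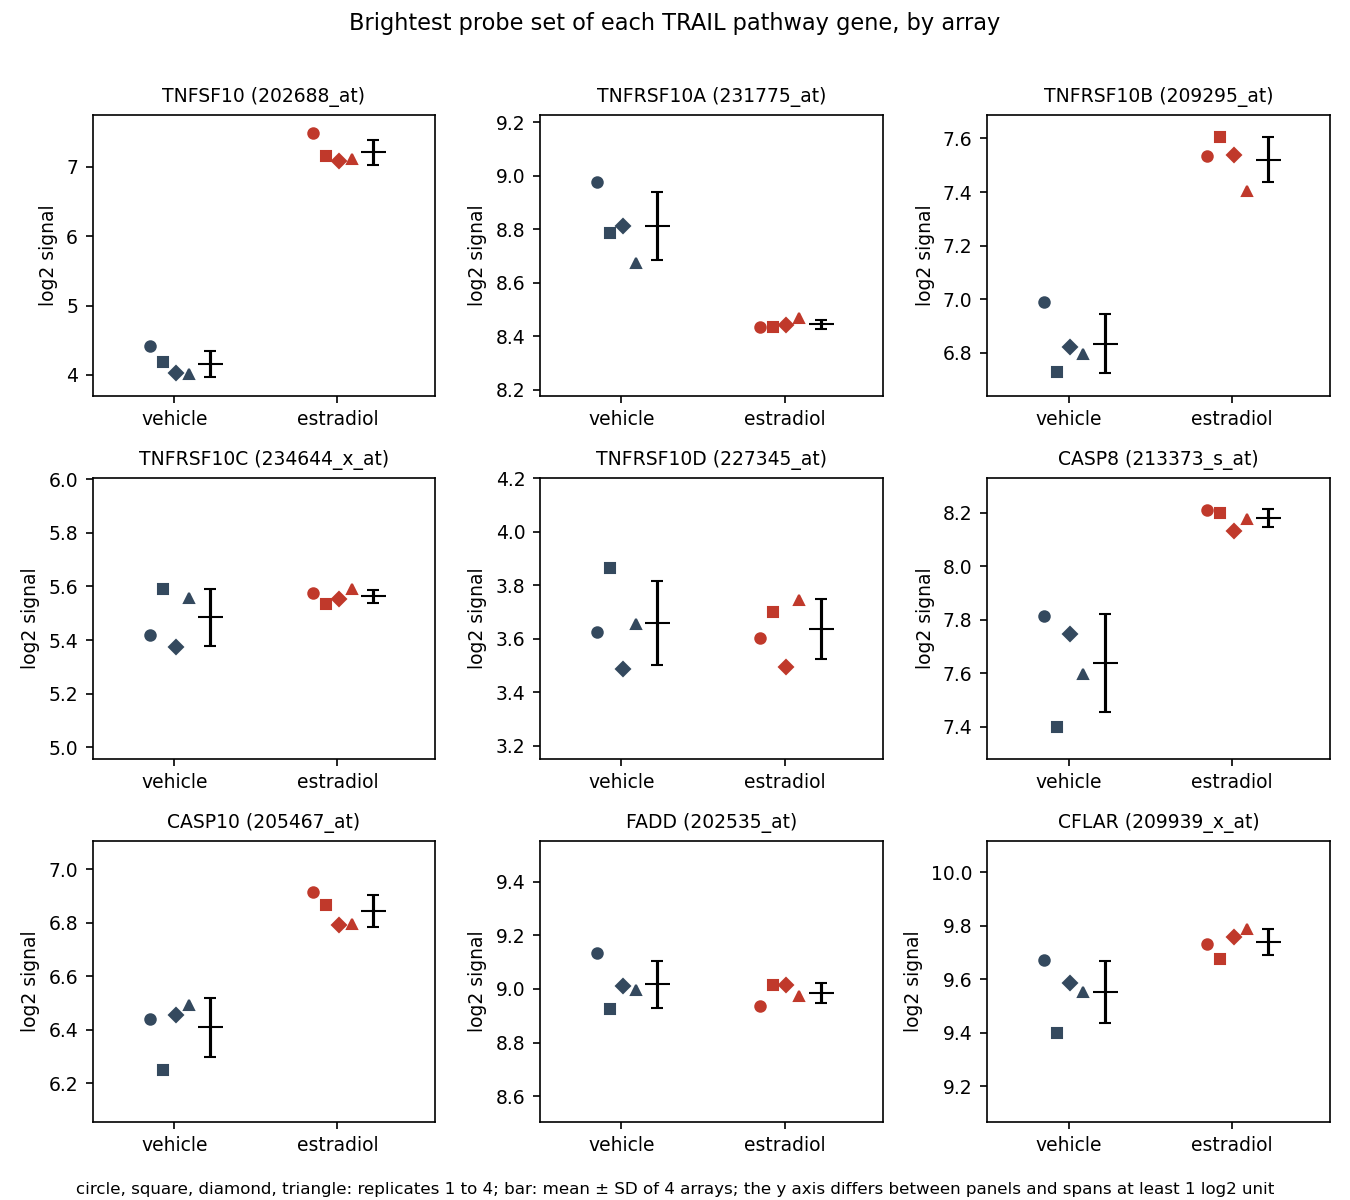
Log2 signal of the brightest probe set of each of the 9 genes in each array (symbols for replicates 1 to 4, bar for the mean ± SD of 4 arrays, vehicle on the left and estradiol on the right of each panel, y axes differing between panels). TNFSF10, TNFRSF10B, CASP8, CASP10 and CFLAR lie higher with estradiol without overlap and TNFRSF10A lower, while TNFRSF10C, TNFRSF10D and FADD overlap.

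TNFSF10, the ligand, was read by 3 probe sets, and all 3 were called higher. On the brightest, 202688_at, the estradiol arrays read 7.48, 7.15, 7.08 and 7.11 for replicates 1 to 4, and the vehicle arrays read 4.41, 4.19, 4.03 and 4.01, on the log2 scale. The lowest estradiol array thus stood far above the highest vehicle array, and replicate 1 was the highest array in each group. The difference was 3.04 ± 0.11 (SE, n = 4 per group), an 8.25-fold higher signal.

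The other TNFSF10 probe sets showed the same separation with somewhat smaller steps. Probe set 214329_x_at read 6.46, 6.49, 6.34 and 6.45 with estradiol and 4.03, 3.17, 3.69 and 3.63 with vehicle, a difference of 2.81 ± 0.15. Probe set 202687_s_at read 5.94, 6.34, 6.37 and 6.04 against 3.69, 3.56, 3.62 and 3.55, a difference of 2.57 ± 0.10. The vehicle signal was dim throughout. All 4 vehicle arrays lay below their array's median on all 3 probe sets, and below its lower quartile (3.70 to 3.74 over the vehicle arrays) in 4 arrays on 202687_s_at and in 3 on 214329_x_at. No detection calls were used here, so a vehicle level above background was not shown and the folds are those of the signal. RNA was pooled over each culture, so a change in the number of cells with the transcript and a change in RNA per cell cannot be told apart.

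The pair of death receptors split. TNFRSF10B, DR5, read 7.54, 7.61, 7.54 and 7.41 with estradiol on its brightest probe set, 209295_at, and 6.99, 6.73, 6.82 and 6.80 with vehicle. The groups did not overlap, and the difference was 0.69 ± 0.07 (SE, n = 4 per group), 1.61-fold. A further TNFRSF10B probe set, 209294_x_at, read 6.15, 6.21, 6.18 and 6.34 against 5.92, 5.81, 5.81 and 5.72 and was also called higher (0.40 ± 0.06). On 210405_x_at the estradiol arrays read 6.44 to 6.53 and the vehicle arrays 5.86 to 6.42, without overlap and without a call (0.31 ± 0.11). The vehicle arrays spread widely there, and without vehicle replicate 2 the difference was 0.38 and called. The fourth, 1556645_s_at, lay below the lower quartile of all 8 arrays and differed by -0.01 ± 0.07.

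TNFRSF10A, DR4, went the other way. Its brightest probe set, 231775_at, read 8.43, 8.44, 8.44 and 8.47 with estradiol and 8.98, 8.79, 8.81 and 8.67 with vehicle. The estradiol arrays were nearly identical and all lay below the lowest vehicle array, for a difference of -0.37 ± 0.07 (SE, n = 4 per group), a 1.29-fold lower signal. Probe set 1552648_a_at gave 7.72, 7.85, 7.70 and 7.75 against 8.15, 8.05, 8.12 and 8.12, a difference of -0.36 ± 0.05 that was called lower as well. The dimmest, 241371_at, read 7.08 to 7.15 with estradiol and 7.03 to 7.34 with vehicle. Those ranges overlapped, and the difference of -0.08 ± 0.08 was not called. In the RefSeq gene order TNFRSF10A and TNFRSF10B lie at the ends of a run of 4 neighbouring protein-coding genes, with both decoy genes between them.

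The decoy receptors were not called. All 4 probe sets of TNFRSF10C overlapped between the groups, with differences of -0.11 to 0.08, and 0 of 4 were called by limma (0 at an unadjusted p below 0.05). Its brightest, 234644_x_at, read 5.53 to 5.59 with estradiol and 5.37 to 5.59 with vehicle. That probe set and 234195_at lay above the median of every array, and the other 2 below it. TNFRSF10D had 2 probe sets, with 0 called by limma (0 at an unadjusted p below 0.05), and its arrays read 3.44 to 3.74 with estradiol and 3.49 to 3.87 with vehicle over both. Both lay below every array's median, with differences of -0.06 ± 0.07 and -0.02 ± 0.09. At signals as low as those of TNFRSF10D a modest difference may not be detectable. A further 2 probe sets shared between TNFRSF10C and another symbol were left out by the rule. They differed by -0.05 each and were not called.

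CASP8, the initiator caspase that cleaves the executioners, was called higher on 2 of its 3 probe sets. On 213373_s_at the estradiol arrays read 8.21, 8.20, 8.13 and 8.18 and the vehicle arrays 7.81, 7.40, 7.75 and 7.60, a difference of 0.54 ± 0.09 (SE, n = 4 per group), 1.45-fold. On 207686_s_at they read 7.13, 7.03, 7.16 and 7.20 against 6.83, 6.48, 6.79 and 6.83, a difference of 0.40 ± 0.09. The groups were separate on each, and vehicle replicate 2 was the lowest array on both. Without that array the differences were 0.46 and 0.32, still called. Without estradiol replicate 4 the call of 207686_s_at was lost at a difference of 0.37. The remaining probe set, 1553306_at, lay below all array medians and differed by -0.12 ± 0.11.

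CASP10, the related initiator caspase, was called higher on 2 of 4 probe sets, and all 4 differences were positive. Probe set 205467_at read 6.92, 6.87, 6.79 and 6.80 with estradiol and 6.44, 6.25, 6.46 and 6.49 with vehicle, a difference of 0.43 ± 0.07 (SE, n = 4 per group), 1.35-fold. Probe set 210708_x_at read 6.21, 6.28, 6.34 and 6.13 against 6.05, 6.03, 5.88 and 5.91 (0.27 ± 0.07). The groups did not overlap on these, but 210708_x_at was no longer called once any of estradiol replicates 1, 2 and 3 or vehicle replicates 3 and 4 was left out, at differences of 0.24 to 0.28. The other probe sets differed by 0.15 ± 0.09 and 0.15 ± 0.07 with overlapping arrays. In RefSeq order CFLAR, CASP10 and CASP8 are consecutive protein-coding genes of chromosome 2.

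FADD, the adaptor between receptors and caspases, has 1 probe set and was not called. It read 8.94, 9.02, 9.01 and 8.97 with estradiol and 9.13, 8.93, 9.01 and 8.996 with vehicle. The estradiol arrays lay within the vehicle range, for a difference of -0.03 ± 0.06 (SE, n = 4 per group). Over the alternatives the FADD difference ran from -0.07 to 0.01.

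CFLAR, the inhibitor, was read by 14 probe sets, of which 1 was called higher and 13 were not, while 12 of the 14 differences were above zero. The called probe set, 239629_at, read 6.20, 6.62, 6.27 and 6.50 with estradiol and 5.95, 5.57, 5.86 and 5.96 with vehicle. Its estradiol arrays were all above its vehicle arrays, and the difference was 0.56 ± 0.12 (SE, n = 4 per group), 1.48-fold. The brightest, 209939_x_at, read 9.73, 9.67, 9.76 and 9.79 against 9.67, 9.40, 9.59 and 9.55, a difference of 0.19 ± 0.07. Its groups were separated by a very small gap, between estradiol replicate 2 and vehicle replicate 1, and it was not called. In the fit over genes, where it stands for CFLAR, it was called under 6 of 18 alternatives, among them the fit without vehicle replicate 1 (0.22). The next brightest, 210563_x_at, differed by 0.18 ± 0.06 and was called without vehicle replicate 1 (0.21). The other 8 probe sets above the array medians differed by -0.002 to 0.14 and overlapped between the groups. With all 14 averaged, CFLAR differed by 0.11 and was not called. The same averaging over all probe sets gave 0.35 for TNFRSF10B, 0.27 for CASP8 and 0.25 for CASP10, all still called.

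Most CFLAR probe sets end in _x_at, the array maker's mark for probes that may also match other sequences. They cannot be counted as separate measurements of the gene, and which splice forms each reads was not analysed here. Whether 239629_at reads a particular form of the transcript was not tested. The _x_at mark is not confined to CFLAR, and 15 of the 38 member probe sets carry it. Among them 3 were called higher: 214329_x_at of TNFSF10, 209294_x_at of TNFRSF10B and 210708_x_at of CASP10. The brightest probe set of TNFRSF10C, 234644_x_at, carries it too.

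**Figure D2:**
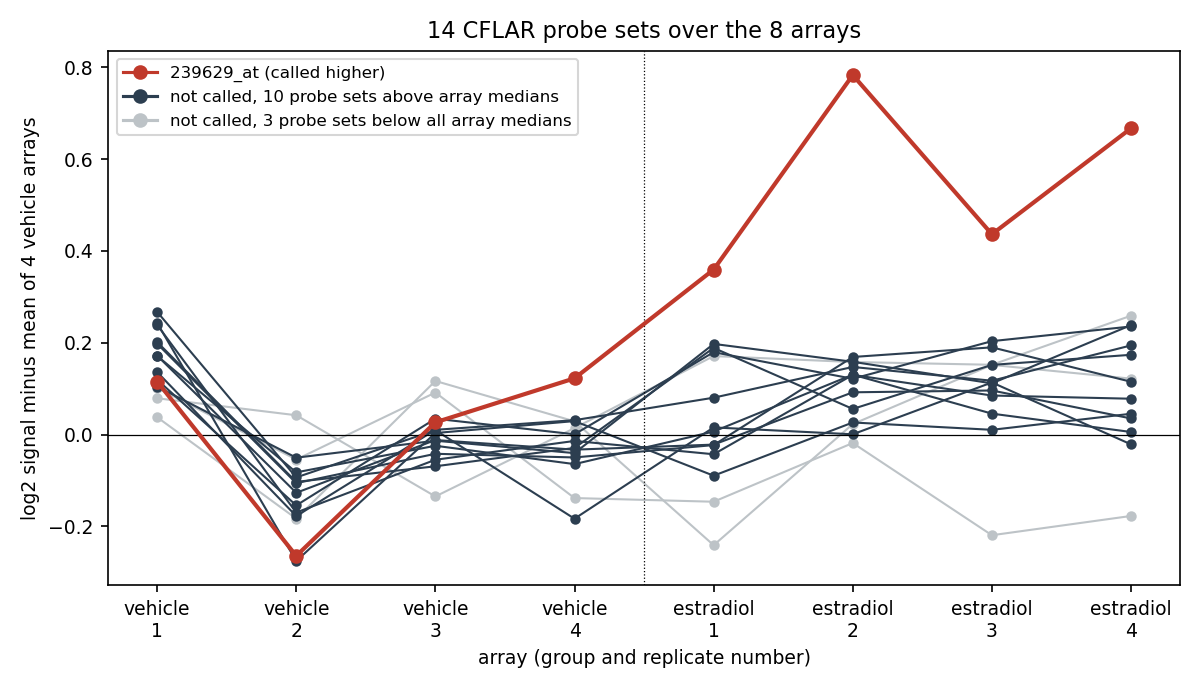
Log2 signal of the 14 CFLAR probe sets in each array, minus the mean of that probe set's 4 vehicle arrays, with lines joining values of 1 probe set (the order of replicates carries no meaning). The called probe set 239629_at (red) rises away from the others in the estradiol arrays, while the 10 uncalled brighter ones (dark) mostly follow each other, high in vehicle replicate 1 and low in vehicle replicate 2, and 3 dim ones (light) scatter.

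The vehicle arrays contributed unequally to these values. Vehicle replicate 2 was the lowest vehicle array in 17 of the 26 member probe sets that lay above the median in all arrays, and in 56.2% of all probe sets that did so. The pattern was therefore not that of the members alone. With that array left out 13 member probe sets and 5 member genes were called, against 12 and 5 with all arrays. Over the fits that leave out 1 array in turn, 11 to 13 member probe sets and 5 or 6 member genes were called.

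Across the 8 arrays the genes with values most like those of TNFSF10 were PPP4R2 (Pearson r = 0.9985), MMD (0.9985), TRIB3 (0.9984), TNFRSF1A (0.9980) and TMEM164 (0.9978). These are descriptions over 8 arrays of 2 groups, so they chiefly mark genes that differed between the groups with little spread within them. Among the members the coefficient was 0.98 for TNFRSF10B, 0.94 for CASP10, 0.93 for CASP8, 0.78 for CFLAR, 0.50 for TNFRSF10C, -0.09 for TNFRSF10D, -0.25 for FADD and -0.89 for TNFRSF10A.

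Further genes of death signalling, its regulators and interferon-stimulated genes were read from 6 lists of 80 genes. Of these, 71 were on the array as annotated (9 were not analysed here). Of the 71, 14 rose and 10 fell, 33.8% in all against 17.9% of all genes. The lists were written with earlier results of these data known. This share and those of the single lists below are therefore not evidence about the pathway. The listed genes were brighter, with a median level of 7.29 against 5.94 over all genes, and whether this bears on the share was not tested. Their median difference was -0.02, against -0.03 over all genes. For these genes the adjusted p-values are Benjamini-Hochberg values of limma over all 19775 genes.

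Among 10 other death ligands and receptors 1 rose and 1 fell (20% called, against 17.9% of all genes). The rise was that of TNFRSF1A, the main receptor of tumour necrosis factor, whose arrays read 9.43, 9.39, 9.33 and 9.40 with estradiol and 8.29, 8.24, 8.23 and 8.16 with vehicle. The groups were wide apart, at 1.15 ± 0.04 (SE, n = 4 per group, 2.22-fold, limma adjusted p = 4.29e-07), on the only probe set of the gene. TNFRSF21, death receptor 6, fell by 0.30 ± 0.09 (adjusted p = 0.0452). Of the 8 fits that drop an array, it was called in that lacking estradiol replicate 2 and in no other, and adjusted p-values ran from 0.0297 to 0.111. The mean of its probe sets gave -0.15 (adjusted p = 0.317, and 0.0157 to 0.317 over the alternatives). The ligands TNF and FASLG and the receptor FAS differed by -0.02 ± 0.09, -0.05 ± 0.07 and -0.04 ± 0.10 and were not called. TNFRSF11B, the secreted decoy osteoprotegerin, differed by 0.06 ± 0.15 and was not called. The signals of TNF, FASLG, FAS and TNFRSF11B were dim, with group means of 3.77 to 4.44 against array medians of 4.97 to 5.08. A modest difference may not be detectable there.

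In the receptor complex and its ubiquitin machinery 3 of 13 measured genes rose and 1 fell (30.8% called, against 17.9% of all genes). RBCK1, the HOIL-1 subunit of the linear ubiquitin ligase, read 9.45 ± 0.05 with vehicle and 10.02 ± 0.04 with estradiol (SD, n = 4). It rose by 0.57 ± 0.04 (SE, adjusted p = 2.61e-05), or by 0.26 with the mean of its 3 probe sets. The other subunits of that ligase, RNF31 and SHARPIN, differed by -0.09 ± 0.07 and 0.08 ± 0.07 and were not called. The deubiquitinase CYLD rose by 0.41 ± 0.08 (adjusted p = 0.00808) on 1 of 7 probe sets. With their mean it differed by 0.15 (adjusted p = 0.164, and 0.00142 to 0.164 over the alternatives). TNFAIP3, the ubiquitin editor A20, rose by 0.41 ± 0.10 (adjusted p = 0.0229). It was not called once estradiol replicate 2, 3 or 4 was dropped (adjusted p = 0.0541 to 0.066) or with the mean of its probe sets (0.30, adjusted p = 0.0612). Over all alternatives its adjusted p was 0.00523 to 0.066. MLKL, the pore-forming effector of necroptosis, fell by 0.33 ± 0.07 (adjusted p = 0.00811), and its activating kinase RIPK3 differed by -0.14 ± 0.09 and was not called.

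Among 10 measured executioner caspases, substrates and inhibitors 2 rose and 3 fell (50% called, against 17.9% of all genes). DFFB, the nuclease that cuts DNA in apoptosis, fell from 7.32 ± 0.09 to 6.67 ± 0.11 (SD, n = 4), by 0.65 ± 0.07 (SE, adjusted p = 0.000172), without overlap, while its inhibitor DFFA differed by -0.04 ± 0.05 and was not called. CASP6, an executioner, fell by 0.27 ± 0.04 (adjusted p = 0.00198) and the lamin gene LMNA, a caspase substrate, by 0.32 ± 0.05 (adjusted p = 0.00151). ROCK1, a kinase that caspases activate, rose by 0.29 ± 0.05 (adjusted p = 0.00379). With the mean of its 5 probe sets it differed by 0.10 (adjusted p = 0.206, and 4.6e-05 to 0.206 over the alternatives). The caspase inhibitor XIAP differed by 0.14 ± 0.07 (adjusted p = 0.196) and BIRC5 by 0.01 ± 0.04 (adjusted p = 0.933).

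In the mitochondrial arm, which amplifies the signal of CASP8 through BID, 5 of 13 measured genes rose and 1 fell. That is 46.2% called, against 17.9% of all genes. MCL1, which protects mitochondria, rose by 0.55 ± 0.04 (SE, n = 4 per group, adjusted p = 2.64e-05), its arrays reading 11.66 to 11.70 with estradiol and 11.04 to 11.17 with vehicle. BCL2L11, the killer protein BIM, rose by 0.52 ± 0.07 (adjusted p = 0.000985), and APAF1, the scaffold of the apoptosome, by 0.50 ± 0.09 (adjusted p = 0.00339). Averaged over its probe sets MCL1 rose by 0.37 and APAF1 by 0.32, and 6 of the 7 probe sets of BCL2L11 were called higher. BCL2 and BCL2L1, which like MCL1 protect mitochondria, differed by -0.01 ± 0.15 and 0.01 ± 0.04 and were not called, nor were the death genes BAK1 (-0.05 ± 0.05) and PMAIP1 (-0.11 ± 0.06). BAX, the pore-former, rose by 0.28 ± 0.07 (adjusted p = 0.0278). Its groups overlapped through vehicle replicate 1 (7.94) and estradiol replicate 4 (7.90), and it was not called when estradiol replicate 1, 2 or 3 or vehicle replicate 2, 3 or 4 was dropped (adjusted p = 0.065 to 0.0815), nor with the mean of its probe sets (0.22, adjusted p = 0.099). Over all alternatives its adjusted p was 0.00323 to 0.099. BID itself fell by 0.21 ± 0.05 (adjusted p = 0.0234). It was singled out after its value had been seen, as the direct substrate of CASP8.

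**Figure D3:**
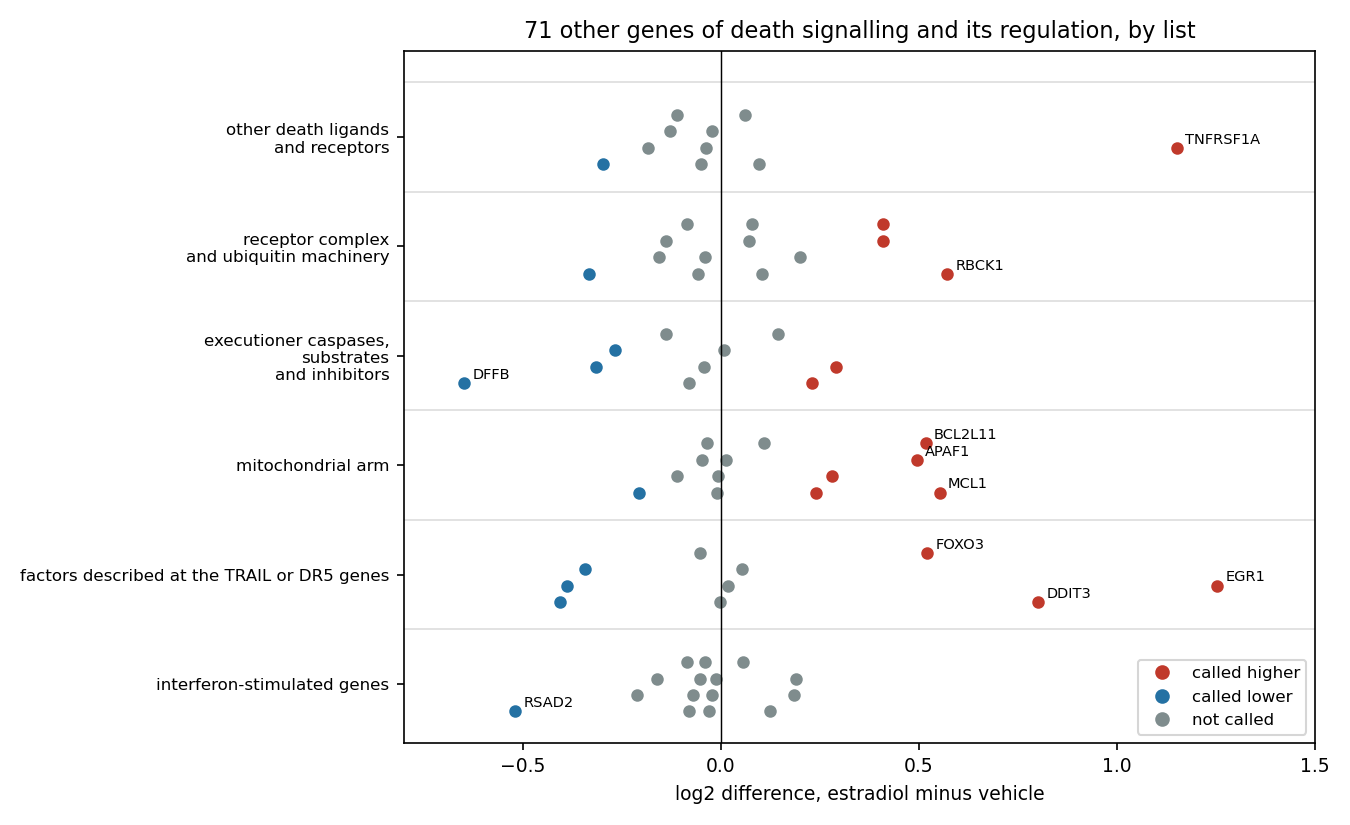
Log2 difference, estradiol minus vehicle, of the 71 measured genes of the 6 lists, with 1 row of points per list, spread vertically for visibility (red for 14 called higher, blue for 10 called lower, grey for 47 not called). TNFRSF1A and EGR1 lie farthest to the right, DFFB and RSAD2 farthest to the left, and the interferon-stimulated genes gather around zero.

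Transcription factors described at the TRAIL or DR5 genes moved both ways, with 3 of 10 measured genes higher and 3 lower. In all 60% were called, against 17.9% of all genes. EGR1, an immediate early factor, rose by 1.25 ± 0.11 (SE, n = 4 per group, adjusted p = 5.89e-05) and DDIT3 (CHOP), a stress factor that activates the DR5 gene, by 0.80 ± 0.05 (adjusted p = 1.21e-05). FOXO3, known to activate the TRAIL gene, rose by 0.52 ± 0.06 (adjusted p = 0.000363), its arrays reading 9.90, 10.03, 9.97 and 10.05 against 9.54, 9.33, 9.56 and 9.44. Its relative FOXO1 fell by 0.41 ± 0.07 (adjusted p = 0.00325), or by 0.26 averaged over its probe sets. FOXO4 fell as well, by 0.34 ± 0.08 (adjusted p = 0.0186), so of 3 measured FOXO genes 1 rose and 2 fell. NFKB1, a subunit of NF-κB, fell by 0.39 ± 0.06 (adjusted p = 0.00106). IRF1 and SP1 differed by -0.05 ± 0.07 and -0.001 ± 0.052 and were not called.

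The interferon-stimulated genes, a class that includes TNFSF10 in other settings, were mostly not called. Of 15 measured, 0 rose by limma (0 at an unadjusted p below 0.05) and 1 fell. RSAD2, the antiviral enzyme viperin, fell by 0.52 ± 0.13 (SE, n = 4 per group, adjusted p = 0.0195) with overlapping groups. It was not called when estradiol replicate 2 or 4 or vehicle replicate 1, 3 or 4 was dropped (adjusted p = 0.0523 to 0.0571, and 0.00263 to 0.0571 over all alternatives). ISG15 differed by -0.02 ± 0.07, IFIT1 by 0.19 ± 0.11 and MX1 by -0.01 ± 0.12, and the median over the list was -0.04. The share called was 6.67%, against 17.9% of all genes. Many of these genes were dim, and an interferon response was not otherwise tested.

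Genes that mark other cell types were not called beside the TNFSF10 rise. Of 7 markers of T and NK cells, which make TRAIL, limma called 0 (1 at an unadjusted p below 0.05). Among all genes 17.9% were called. The mean level of these markers was 5.16 to 5.31 with estradiol and 5.26 to 5.36 with vehicle, but not all were dim. CD3D read 7.85 to 8.03 with estradiol and 7.90 to 8.16 with vehicle, above the upper quartile of every array. Among 4 measured monocyte markers 0 were called (0 at an unadjusted p below 0.05), at mean levels of 4.64 to 4.74 and 4.66 to 4.78. All 7 measured erythroid markers of K562 lay above the upper quartile of every array, and 3 of them, GATA1, KLF1 and HBE1, fell. The genes of the fusion partners, ESR1 and CEBPA, differed by 0.04 ± 0.06 (adjusted p = 0.699) and -0.02 ± 0.07 (adjusted p = 0.883).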

How the data were processed

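RNA of 8 cultures was measured on single-colour arrays, 4 per group, grouped and numbered by their titles. The deposited values are log2 signals made by the authors with RMA, per the submitters' processing notes. RMA equalizes the arrays' distributions, so a change common to most genes would be hidden, and it compresses differences of dim probe sets. The deposit was used as it stands, its software, chip definition and build not given in the sources used here. Array medians ran from 4.97 to 5.08, and the number of arrays limits precision.

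Of 54675 probe sets 41097 had 1 symbol in the platform annotation, 1801 several and 11777 none listed. Symbols were checked through the gene identifier for 41043, and 0 changed. Limma 3.58.1 (lmFit, eBayes, two-sided, no covariate, no filter) in R 4.3.3 was fitted over 19775 genes, each represented by its probe set with the highest mean, and separately over all probe sets. Benjamini-Hochberg adjusted p-values below 0.05 were called. SDs and n refer to 4 arrays and SEs are moderated. The fit was tested on simulated data, where it recovered 16% of log2 changes of 0.25, 60% of 0.5, 98% of 1 and 100% of 2. The simulation used independent normal noise and made 146 calls, 9 of them false, against 3538 called genes in these data. Far fewer genes were changed in it, so the recovered shares may not hold for this contrast. Genes that were not called may still differ modestly. Figures used matplotlib 3.10.9.

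Members and lists were chosen with earlier results of these data known. Besides all members, the text names from each list up to 4 called genes with the largest difference, or, failing any, that of smallest p, the 5 genes most correlated with TNFSF10, and the fusion partners. Other list genes, BID among them, were named after their values were seen. Alternatives were the replicate number as a block, 3 scalings, 2 filters on dim features, a trend with robust fit, array weights, a stricter threshold, the mean of all probe sets and each array left out.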

Additional observations from a re-analysis of the deposited data

Results flagged for a closer look

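Each 4-array group of the member probe sets and of the list genes named for the largest called differences was checked, 114 groups in all. An array far from the other 3 was sought, which chance gives in about 1 of 20 groups. There were 6 such arrays. Vehicle replicate 2 stood low for CASP8 on 207686_s_at (6.48 against 6.79 to 6.83) and for MCL1 (11.04 against 11.15 to 11.17). Vehicle replicate 1 stood high for BAX (7.94 against 7.67 to 7.72) and for FOXO1 (7.05 against 6.88 to 6.89). Estradiol replicate 2 stood low for FOXO1 (6.34 against 6.56 to 6.60). For TNFRSF10C on 211163_s_at estradiol replicate 3 read 3.37 against 3.41 in the other 3, a gap far smaller than the spread of its vehicle arrays.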

How the results depend on the processing

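No member, and no list gene named by the rule of largest called differences, changed direction with a call under any of the 18 alternatives. Other named genes, among them BID, FOXO4, NFKB1 and the markers, were not followed individually over the alternatives. Leaving out 1 array in turn gave 2732 to 3551 called genes, 4008 to 5758 called probe sets, 5 to 6 called member genes, 11 to 13 called member probe sets and 19 to 23 called list genes. At an adjusted p below 0.01 the counts were 2179 genes and 3268 probe sets, against 3538 and 5669. With the replicate number as a block 2598 genes and 3667 probe sets were called, and MLKL (adjusted p = 0.0526), TNFRSF21 (adjusted p = 0.119) and the calls of 210708_x_at and 239629_at were lost, while the same 5 member genes were called. The numbers did not pair the arrays, since the correlations of same-numbered deviations were -0.08, -0.24, 0.09 and 0.10. TNFSF10 had too low a mean to pass the filter at the median and was called in the other 17. Signals near the lower quartile limit what can be said of TNFRSF10D and, on 2 of its 3 probe sets, vehicle TNFSF10.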
